A study of Glycine max with 16 samples.

Results

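Jasmonate synthesis and perception were followed in soybean leaves through 4 genes, which 10 of the array's 61170 probe sets report. The probe sets are those assigned to exactly 1 gene with the symbol or synonym CYP74A2, AOC3, AOC4 or COI1. COI1 has 6 of them, AOC3 has 2, and CYP74A2 and AOC4 have 1 each. The genes were picked with their signals over the 4 states already known, so the differences between states for these 4 genes are a description and carry no test.

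Leaves came from Glycine max cultivar Williams 82, the first fully expanded leaf in each case, with no transgene and no agent other than heat. The 4 states had 4 arrays each: baseline at the growth temperature of 22 °C, the temperature of optimal photosynthesis, and the warmer points at which photosynthesis lay 20% and 30% below that optimum. Air was warmed by 2 °C every 10 min towards 42 °C, so that a warmer state was also a later one within a curve of 3 to 4 h, and the effects of heat and time cannot be told apart. The labels give 4 plants per state and do not say whether a plant was sampled at more than 1 state. The p-values below treat the arrays as independent. Those of limma set a difference between states against the spread between arrays of a state. The exact permutation p-values test whether 2 genes vary together within states.

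Jasmonates are lipid hormones of wounding, defence and stress. A lipoxygenase adds oxygen to linolenic acid in the plastid, allene oxide synthase turns the hydroperoxide into an unstable epoxide, and allene oxide cyclase closes its ring, giving the precursor that peroxisomes shorten to jasmonic acid. Joined to isoleucine, the hormone is bound by the F-box protein COI1 together with a JAZ repressor, which is then degraded and frees MYC factors, as worked out mainly in Arabidopsis. In soybean leaves vegetative storage proteins and several lipoxygenases are well-known jasmonate-responsive products.

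The values are MAS5 signal intensities, 1 per probe set and array. Each array's background was taken as the 95th percentile of its PsAffx and HgAffx probe sets, on the assumption that none of them matches a soybean transcript. It averaged 81.8 ± 7.0 on baseline arrays and 86.2 ± 11.9 on optimum arrays (SD, n = 4). It averaged 125 ± 28.1 on the arrays of 20% inhibition and 112 ± 30.8 on those of 30% inhibition. Replicate 3 at 20% inhibition had the highest level, 163. For the GlutTrans control, the log2 signal at the 3′ end less that at the 5′ end was 0.07 ± 0.25 at baseline and between 0.63 and 1.13 on the 12 warmer arrays. The same measure for the r2-Gma-actin control moved less, from 1.12 ± 0.10 at baseline to 1.28 ± 0.10, 1.31 ± 0.08 and 1.34 ± 0.05 with warming (SD, n = 4). The part of either in the results below was not tested unless a value is given. Of 17 probe sets of leaf markers, 14 lay above background on all 16 arrays, while 7 of 11 seed and 3 of 6 nodule marker probe sets lay below it on all 16. The nodule marker probe set of ENOD40B lay above it on all arrays.

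CYP74A2 was higher in each warmer state than at baseline. The platform gives this gene as LOC100810890, and the RefSeq table lists both CYP74A2 and HPL among its synonyms. CYP74A is the name of allene oxide synthases and HPL that of hydroperoxide lyases, which share the substrate and lead to leaf aldehydes in place of jasmonate, so which activity the gene encodes is not settled here. Its only probe set has a name ending in _s_at, the mark of probes shared by several transcripts, and its signal may include relatives.

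The baseline signals of CYP74A2 were 1454, 1226, 1136 and 1271 in replicates 1 to 4. At the optimum they were 1833, 2385, 2861 and 2377. At 20% inhibition they were 3413, 3703, 3207 and 3664, and at 30% inhibition 2970.5, 3427, 3039 and 3690.4. Every array of a warmer state lay above every baseline array, and both inhibited states lay above the optimum. The mean was 1272 ± 134 at baseline and 3497 ± 232 at 20% inhibition (SD, n = 4). The log2 difference from baseline was 0.88 ± 0.13 (standard error of the fit), 1.46 ± 0.13 and 1.37 ± 0.13 for the optimum, 20% and 30% inhibition, or 1.84-fold, 2.76-fold and 2.58-fold. The states ran from baseline through the optimum to 30% and then 20% inhibition, and the last 2 overlapped.

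**Figure D1:**
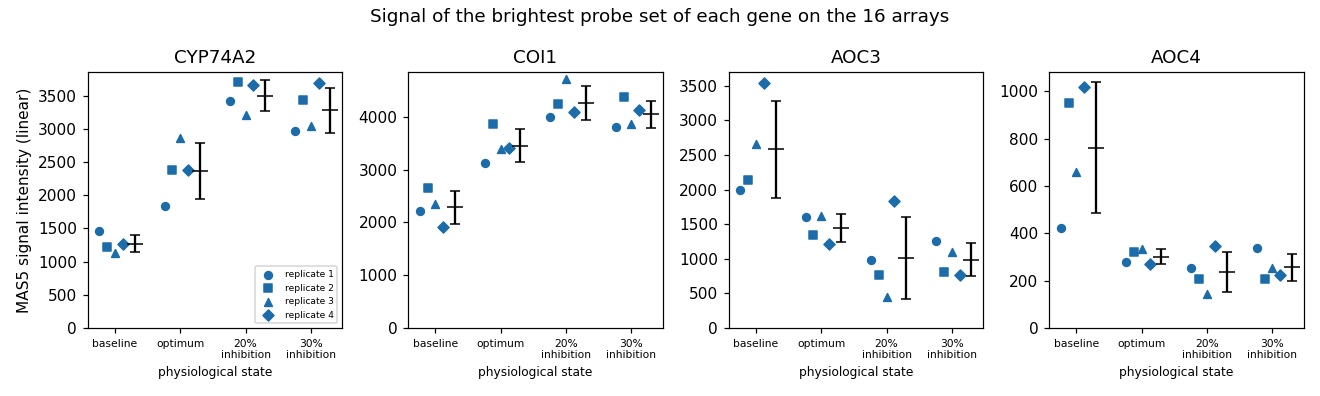
MAS5 signal intensity (linear axis from 0) of the brightest probe set of CYP74A2, COI1, AOC3 and AOC4 on the 4 arrays of each physiological state, with a marker shape per replicate number and the mean ± SD in black. CYP74A2 and COI1 lie higher, and AOC3 and AOC4 lower, in every warmer array than in every baseline array.

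AOC3 and AOC4, allene oxide cyclase genes, were lower in each warmer state than at baseline. Allene oxide cyclase fixes the stereochemistry of the jasmonate ring. The probe set names of both genes share a stem in the array design, and cross-hybridization between AOC3 and AOC4 was not tested.

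On the brighter AOC3 probe set, the baseline signals were 1986, 2134, 2653 and 3543. The optimum gave 1601, 1345, 1613 and 1209.9. At 20% inhibition the arrays gave 981, 765, 454 and 1837, and at 30% inhibition 1263, 815, 1099.7 and 758. No warmer array reached the lowest baseline array. Replicate 4 at 20% inhibition was high, above every array of the optimum, and replicate 3 of that state was the lowest of the 16. Baseline averaged 2579 ± 704 and the optimum 1442 ± 198 (SD, n = 4). The inhibited states averaged 1009 ± 593 at 20% and 984 ± 239 at 30%, and the arrays of 20% inhibition overlapped those of the optimum and of 30% inhibition.

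Against baseline, AOC3 differed by -0.81 ± 0.31 on the log2 scale at the optimum. It differed by -1.50 ± 0.31 for 20% inhibition and by -1.38 ± 0.31 for 30% inhibition, or 2.83-fold and 2.61-fold lower. With the array background level as a covariate, the value at 20% inhibition was -0.91. Between the optimum and 20% inhibition AOC3 differed by -0.69 ± 0.31, or by -1.04 without replicate 4 and -0.36 without replicate 3 of 20% inhibition. The dimmer AOC3 probe set gave -0.72 ± 0.41, -1.93 ± 0.41 and -1.59 ± 0.41 in the 3 warmer states, with 435, 224, 241 and 1108 at 20% inhibition. Replicate 4 was thus the highest array of that state on both probe sets.

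AOC4 had baseline signals of 422, 953, 658 and 1017. The optimum gave 280.1, 322, 333 and 271, so the 4 arrays lay close together and below all of baseline. At 20% inhibition the signals were 252, 206, 145 and 346, and at 30% inhibition 339, 206, 254 and 223. The lowest, replicate 3 at 20% inhibition, lay below the background level of its array. The log2 difference from baseline was -1.26 ± 0.28, -1.67 ± 0.28 and -1.52 ± 0.28 in the 3 warmer states in order, or 2.40-fold, 3.18-fold and 2.87-fold lower. Most of the difference was already there at the optimum, and the 3 warmer states overlapped. The difference between 20% inhibition and the optimum, -0.41 ± 0.28, was -0.20 without replicate 3 and -0.61 without replicate 4 of 20% inhibition, and changed sign with background as a covariate.

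COI1, the receptor subunit, was higher in the warmer states on most of its probe sets. They are called here the first to the sixth in order of mean signal, which only names them. The first has a name ending in _s_at, as for CYP74A2, and its signal may include relatives. It gave 2223, 2662, 2348 and 1912 at baseline. It gave 3129, 3877, 3399 and 3417 at the optimum. The arrays at 20% inhibition were at 4001, 4241, 4717 and 4095, and those at 30% inhibition at 3809.6, 4373, 3877 and 4143. Baseline lay below all other arrays, and the optimum below all of 20% inhibition, while 20% and 30% inhibition overlapped. The log2 difference from baseline was 0.60 ± 0.11, 0.91 ± 0.11 and 0.83 ± 0.11 in order, or 1.52-fold, 1.87-fold and 1.78-fold.

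The other COI1 probe sets gave a mixed picture. The second had a mean of 1132 ± 234 at baseline and 2364 ± 193 at 30% inhibition, and the fourth had 1034 ± 225 and 2106 ± 203 (SD, n = 4). Their log2 differences at 30% inhibition were 1.08 ± 0.14 and 1.05 ± 0.15, and no array of a warmer state overlapped baseline. The fifth had a like difference, 1.11 ± 0.50, but its arrays spread from 262 to 925 at baseline and from 431 to 1729 at 30% inhibition, and the states overlapped.

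The third showed a smaller difference. It was at 1597 ± 399 at baseline and 1718 ± 180.0 at 30% inhibition (SD, n = 4), a log2 difference of 0.13 ± 0.16. Its baseline replicate 1, at 2104, lay above all 4 arrays at 30% inhibition. The sixth lay below background on 14 of 16 arrays and did not pass the signal filter. Whether these probe sets bind the same part of the COI1 transcript is not known from the sources used here.

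**Figure D2:**
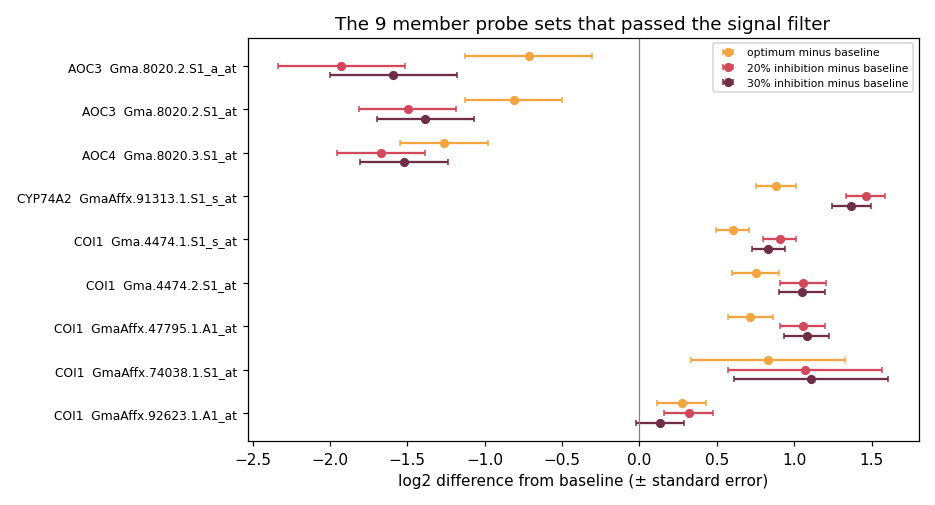
Log2 difference from baseline (horizontal axis, ± standard error of the fit) for the 9 member probe sets that passed the signal filter, coloured by state. The AOC3 and AOC4 probe sets lie between -1.93 and -0.72, CYP74A2 between 0.88 and 1.46, and 4 of 5 COI1 probe sets between 0.60 and 1.11, with the third COI1 probe set (bottom line), from 0.13 to 0.32, nearer 0.

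Of the 10 probe sets of the 4 genes, 9 passed the filter on signal. In each of the 3 warmer states, 4 of the 9 lay wholly above baseline and 3 wholly below it. Over all 30517 probe sets tested, 9.16% lay wholly above and 10.5% wholly below for the optimum. The shares were 15.6% and 16.8% for 20% inhibition, and 16.6% and 18.2% for 30% inhibition. PsAffx and HgAffx probe sets were not left out before the signal filter. The shares over all probe sets tested, here and below, may therefore include some of them. As the members were chosen on these contrasts, nothing is read from their count. Leaf RNA is a mixture of cell types, in which fewer cells of a type and less RNA per cell cannot be told apart.

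The other jasmonate pathway genes are not named in the choice of the 4 and were tested. The list holds 49 probe sets matched by name, of which 42, from 16 genes, passed the signal filter. It had no tested member for the lipase, the reductase, the beta-oxidation or the MYC steps. The list was drawn up with results of these arrays known, its lipoxygenases and storage proteins among them. The adjusted p-values below cover all 30517 probe sets and not that choice, and the list is not independent evidence of a direction. At the optimum 0 of 42 were higher than baseline and 1 was lower, against 6.63% and 6.26% of all probe sets tested (limma, adjusted p under 0.05). At 20% inhibition 4 were higher and 1 lower, 9.52% and 2.38% of the list, against 17% and 18.6%. At 30% inhibition 3 were higher and 4 lower, 7.14% and 9.52%, against 16.9% and 17.7%. Several probe sets read 1 gene, and with the brightest probe set of each of the 16 genes the counts were 0 higher and 1 lower at the optimum, 2 and 1 for 20% inhibition, and 1 and 3 for 30% inhibition. The difference of the list from all probe sets was not tested. At 20% inhibition the split was 3 higher and 4 lower without 20% inhibition replicate 4, and 4 higher and 3 lower without 30% inhibition replicate 3. Without baseline replicate 4 the count was 3 at 20% and 3 at 30% inhibition, and without 30% inhibition replicate 4 it was 3 at 30% inhibition. At the optimum it was 0 without baseline replicate 2 or optimum replicate 2, 3 or 4, and 2, both higher, without baseline replicate 3. The list's median log2 difference was 0.01, 0.09 and 0.01 in order, against 0.00, -0.01 and -0.01 over all probe sets tested.

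Among allene oxide synthases, AOS2, which the RefSeq table also names AOS and CYP74A3, fell in all 3 warmer states. Its signals were 926, 1163, 1119 and 1019 at baseline and 701, 699, 713 and 619 at the optimum. They were 537, 522, 748 and 676 at 20% inhibition, and 648, 601, 598 and 347 at 30% inhibition. All baseline arrays lay above all warmer arrays. The log2 change was -0.63 ± 0.18 at the optimum (limma adjusted p = 0.029). It was -0.78 ± 0.18 for 20% inhibition (limma adjusted p = 0.00272) and -0.98 ± 0.18 for 30% inhibition (limma adjusted p = 0.000455). The call at the optimum ended without baseline replicate 2 or 3 or without optimum replicate 2, 3 or 4, with limma adjusted p between 0.0511 and 0.0845. CYP74A2 and AOS2, both given CYP74A names, lay on opposite sides of baseline.

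AOS1 and CYP74A1, the other CYP74 genes measured, did not pass in any contrast. On their brightest probe sets the log2 differences at 30% inhibition were -0.29 ± 0.30 and -0.43 ± 0.34 (limma adjusted p = 0.503 and 0.359). The other AOS1 probe set tested had a mean log2 signal of 8.31 at baseline. In the 3 warmer states its means were 7.76, 7.21 and 7.67, and its arrays at 20% inhibition ran from 19.5 to 499. Its name shares a stem with that of the AOS2 probe set, and cross-hybridization between them was not tested. Of the other cyclases, AOC2 fell at 30% inhibition, from 575 ± 128 to 382 ± 92.9 (SD, n = 4), a log2 change of -0.59 ± 0.20 (limma adjusted p = 0.0298). That call ended without baseline replicate 2, 3 or 4 or 30% inhibition replicate 1, 2 or 4, with limma adjusted p between 0.0544 and 0.0972. AOC2 at 20% inhibition was at -0.50 ± 0.20 (limma adjusted p = 0.0623), and passed without baseline replicate 1 (-0.66, limma adjusted p = 0.0164) or 30% inhibition replicate 3 (limma adjusted p = 0.0437). AOC6 was at -0.59 ± 0.33 at 20% inhibition and -0.61 ± 0.33 at 30% inhibition and passed in neither (limma adjusted p = 0.175 and 0.165). Without replicate 4 at 20% inhibition, at 2704 against 717 to 1309 for the other 3 arrays, its value was -0.94 (limma adjusted p = 0.0133). Without replicate 3 it was -0.31 (limma adjusted p = 0.48), and with background as a covariate -0.03 (limma adjusted p = 0.967). At 30% inhibition AOC6 was at -0.35 without replicate 2 of that state (limma adjusted p = 0.444) and at -0.21 with background as a covariate (limma adjusted p = 0.695).

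Upstream, the lipoxygenase gene LOX7 rose at 20% inhibition by 0.69 ± 0.17 (limma adjusted p = 0.00551) and at 30% inhibition by 0.58 ± 0.17 (limma adjusted p = 0.0159) on its brightest probe set. Of its 4 probe sets, 2 passed in both states, and the other 2, at 0.48 and 0.51 for 20% inhibition, passed in neither (limma adjusted p = 0.102 and 0.0647, and 0.15 and 0.128 for 30% inhibition). The names of all 4 share a stem in the array design, and that of the brightest ends in _x_at. Cross-hybridization of the LOX7 probe sets was not tested. The call of the brightest at 30% inhibition ended without baseline replicate 2 or 4 or 30% inhibition replicate 4, with limma adjusted p between 0.0521 and 0.0556. At the optimum LOX7 was at 0.41 ± 0.17 (limma adjusted p = 0.14), and at 0.56 without baseline replicate 3 (limma adjusted p = 0.0465). Of 5 LOX9 probe sets, 1 also rose in both states, by 0.34 ± 0.12 and 0.35 ± 0.12 (limma adjusted p = 0.0372 and 0.0351). LOX9 falls outside the rule for named genes and was named after its values were seen. Its calls were not recomputed under the alternatives. LOXB1 and VLXB, of the vegetative lipoxygenases, were at 0.10 ± 0.13 and 0.06 ± 0.12 at 30% inhibition (limma adjusted p = 0.586 and 0.749). Their arrays were near the top of the scale, where the brightest signal of any probe set was 89579. A lipoxygenase is in the list by its name, and not every lipoxygenase feeds the jasmonate branch.

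**Figure D3:**
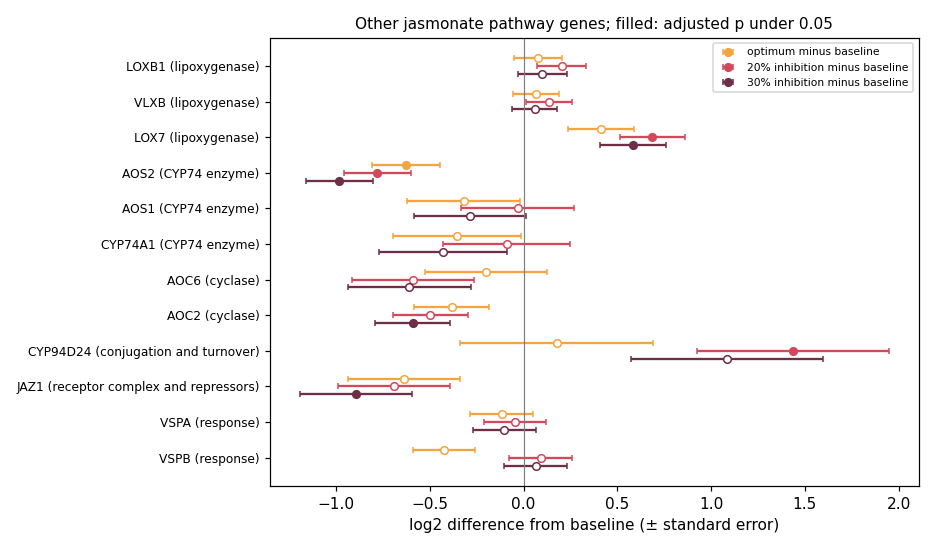
Log2 difference from baseline (horizontal axis, ± standard error) of the brightest probe set of 12 other jasmonate pathway genes, grouped by step and coloured by state, with filled points for a limma adjusted p under 0.05. AOS2 is lower in all 3 states, AOC2 and JAZ1 pass at 30% inhibition, LOX7 and CYP94D24 are the genes higher, and the storage protein genes VSPA and VSPB lie near 0 at 20% and 30% inhibition.

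JAZ1, a gene for a repressor that COI1 removes when the hormone binds, fell at 30% inhibition. Its brightest probe set gave 2751, 3618, 3866 and 4701 at baseline and 2973, 1595, 1855 and 1721 at 30% inhibition. Replicate 1 at 30% inhibition overlapped baseline. The log2 change was -0.89 ± 0.30 (limma adjusted p = 0.0277), and of the other 2 JAZ1 probe sets tested, 1 gave -0.93 ± 0.27 (limma adjusted p = 0.0135) and 1 gave -0.50 ± 0.27 (limma adjusted p = 0.169). Neither of these was recomputed under the alternatives. The call of the brightest ended with array background as a covariate (-0.37, limma adjusted p = 0.308), and without baseline replicate 3 or 4 or 30% inhibition replicate 2, 3 or 4, with limma adjusted p between 0.0598 and 0.0797. At 20% inhibition the difference was -0.69 ± 0.30 (limma adjusted p = 0.0828). Without replicate 4 of that state, which stood at 4776 against 1433 to 2273 for the others, it was -1.05 (limma adjusted p = 0.00204). Without replicate 3 it was -0.47 (limma adjusted p = 0.245), and with background as a covariate 0.06 (limma adjusted p = 0.911), with the sign turned.

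The storage protein genes, used as jasmonate-responsive products, did not pass against baseline in limma. The brightest probe sets of VSPA, VSPB and LOXB1 also have names ending in _s_at, so their signals may include relatives. VSPA was at -0.05 ± 0.17 at 20% inhibition and -0.10 ± 0.17 at 30% inhibition (limma adjusted p = 0.858 and 0.678). Its arrays ran from 40770 to 74059, also near the top of the scale, so that the small differences carry the same limit as those of LOXB1 and VLXB. Dimmer VSPA probe sets went both ways. From baseline to 30% inhibition, 1 went from 407 ± 164 to 276 ± 82.2 and another from 1430 ± 278 to 1664 ± 300 (SD, n = 4). Of 10 storage protein probe sets tested, 0 passed against baseline in any warmer state. VSPB was at -0.42 ± 0.17 at the optimum (limma adjusted p = 0.113), a difference that passed with quantile normalization (-0.52, limma adjusted p = 0.00783). From the optimum to 20% inhibition it rose by 0.51 ± 0.17 (limma adjusted p = 0.045), the 1 probe set of the 42 higher in that step, with 0 lower, against 7.87% and 8.7% of all probe sets. That call was lost in 10 of the 16 fits that left out 1 array. CYP94D24 belongs to the family whose CYP94B and CYP94C members oxidize jasmonoyl-isoleucine in Arabidopsis. It passed at 20% inhibition at 1.44 ± 0.51 (limma adjusted p = 0.0381), from 84.1 ± 28.3 to 248 ± 169 (SD, n = 4). The array background averaged 81.8 at baseline and 125 at 20% inhibition, and 1 array of each state lay below its own background. Replicate 3 at 20% inhibition was the highest, at 498. Without that array the difference was 1.03 (limma adjusted p = 0.13), and with background as a covariate 0.88 (limma adjusted p = 0.381). The call was also lost without baseline replicate 3 or 4 or 20% inhibition replicate 4, with limma adjusted p between 0.0556 and 0.12. From 20% to 30% inhibition 0 of 42 passed in limma, 0 of them at an unadjusted p under 0.05, against 0% of all probe sets.

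The arrays of 1 state also varied, and that variation is not what the 4 genes were chosen on. Each log2 signal was taken as a deviation from the mean of its state, and 54 pairs of genes were compared, namely the 4 genes among themselves and with the 12 pathway genes above. Deviations of AOC3 and JAZ1 ran together over the 16 arrays, with Pearson's r = 0.891 (exact permutation p within states = 0.000356, 0.0168 after Benjamini-Hochberg adjustment over the 54) and Spearman's rho = 0.779 (exact permutation p = 0.00281, adjusted 0.0376). Both had the same sign on 12 of 16 arrays. Without the 2 arrays farthest from the median of AOC3, which were replicates 3 and 4 at 20% inhibition, r was 0.75. AOC3 and AOC6 gave r = 0.886 and rho = 0.791 (exact permutation p = 0.000621 and 0.00348, adjusted 0.0168 and 0.0376), with the same sign on 14 of 16 arrays and r = 0.721 without those 2 arrays.

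**Figure D4:**
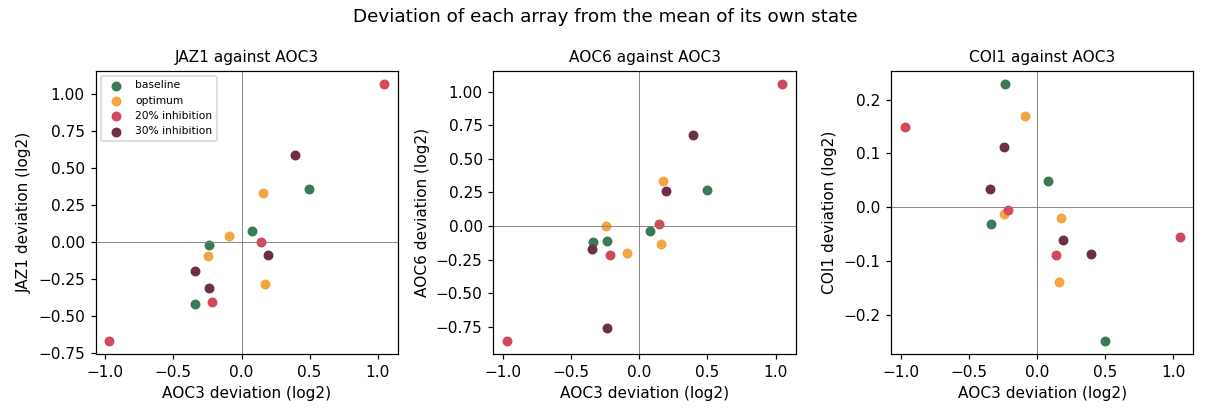
Deviation of each of the 16 arrays from the mean of its own state (log2, both axes), for JAZ1, AOC6 and COI1 against AOC3, coloured by state. JAZ1 and AOC6 rise with AOC3, with r of 0.891 and 0.886, while r was -0.607 for COI1 and did not pass after adjustment. Replicates 3 and 4 at 20% inhibition are the points farthest left and right.

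Cross-hybridization between AOC3 and AOC4 was not tested, so the correlations of AOC4 may not be separate from those of AOC3. AOC4 followed the same arrays. It gave r = 0.738 with AOC6, r = 0.785 with JAZ1 and r = 0.794 with AOC3, with exact permutation p of 0.00174, 0.00185 and 0.00414 (adjusted 0.025, 0.025 and 0.0448). The corresponding rho were 0.756, 0.809 and 0.85 (exact permutation p = 0.00288, 0.00216 and 0.000838, adjusted 0.0376 for each), and r without the 2 arrays farthest out in the first gene of the pair was 0.783, 0.734 and 0.667. COI1 and AOC3 had r = -0.607 and rho = -0.659, which did not pass (exact permutation p = 0.00799 and 0.0144, adjusted 0.0616 and 0.116), and r = -0.675 without the 2 farthest arrays. CYP74A2 showed r = -0.06 with AOC3, rho = -0.209 and r = -0.081 without 2 arrays (exact permutation p = 0.778 and 0.461, adjusted 0.873 and 0.896). The cyclase AOC2 did not pass with AOC3 (r = 0.111, exact permutation p = 0.633, adjusted 0.873). Nor did it pass with AOC4 (r = 0.259, exact permutation p = 0.415, adjusted 0.783).

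Array background moved with these deviations, with r = -0.554 for AOC3 and -0.591 for AOC4 over the 16 arrays as a description. With background removed from both sides, r was 0.86 for AOC3 and JAZ1, 0.843 for AOC3 and AOC6, and 0.695 for AOC3 and AOC4. It was 0.63 for AOC4 and AOC6 and 0.641 for AOC4 and JAZ1. The 935 other genes with a product name were ordered by their correlation with AOC3 within states. JAZ1 came at place 1 (r = 0.891), AOC6 at place 3 (0.886) and AOC4 at place 11 (0.794). Place 2 went to GRP (0.889), which is not in the pathway list. The remaining named pathway genes came between place 106 (VSPA, 0.541) and place 892 (CYP74A1, -0.584). Among them were LOX7 at place 335 (0.194), AOS2 at place 352 (0.171) and the cyclase AOC2 at place 389 (0.111). For AOC4, GBF2, which is not in the pathway list, came at place 1 (0.808). AOC3 came at place 2 (0.794), JAZ1 at place 3 (0.785), AOC6 at place 8 (0.738) and AOC2 at place 227 (0.259). All these points share arrays, scaling and hybridization.

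Over all 16 arrays, state differences included, the most alike of the 935 named genes can be given for each member by Pearson's r of log2 signal, as a description. For CYP74A2 these were HSP90A1, a cytosolic chaperone (0.948), PIP1-4, an aquaporin (0.944), and PDIM-1, a protein disulfide isomerase (0.944). For COI1 they were MYB93 (0.959), J1 (0.959) and BZIP105 (0.95). For AOC3 they were the bZIP gene BZIP63 (0.924), AOC4 (0.913) and SIP1-6 (0.898), and for AOC4 they were AOC3 (0.913), PTI1 (0.874) and MYB118 (0.869). CYP74A2 and COI1, at 0.925 over all arrays, had r = 0.12 within states.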

How the data were processed

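Total RNA from 16 leaf samples was labelled and hybridized to 1 array each. The deposited values are linear signal intensities made by the authors with MAS5, per the submitters' processing notes. The version of MAS5 is not given in the sources used here, nor is a genome build. The mean of each array without the top and bottom 2% of its 61170 values was 500.0, so arrays share a common scale, and a shift of total messenger RNA cannot be seen.

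Values were log2-transformed without an added constant. After 135 control probe sets were left out, the 30517 probe sets above the median mean log2 signal (6.08, a signal of 67.6) were tested with limma 3.58.1 in R 4.3.3 (lmFit, eBayes with trend, two-sided, 1 mean per state over 16 arrays, Benjamini-Hochberg over all 30517, threshold 0.05). The 23350 PsAffx and HgAffx probe sets were not among those left out, and how many passed the filter was not counted. The filter signal lay below the background level of every array, the lowest of which was 74.5. Every warmer state was set against baseline, and the inhibited states also against the state before them. The fit and the exact within-state permutation were tested on simulated data. With 4 arrays per state, precision is limited by their number.

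Gene names were those of the platform annotation (8677 probe sets have 1 gene, 370 have several and 52123 have none there), with synonyms from the RefSeq table of Glycine_max_v4.0. Of the 8677, 8652 matched that table. Positions are not given, as no build is known for the array. Probe sequences were not used.

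Named were all probe sets of the 4 genes, and of the pathway list the 3 brightest genes of each step by their brightest probe set. Most-alike genes were the 3 of highest correlation. The members and lists were chosen with earlier results of these data known. Alternatives were quantile normalization, added constants of 16 and 64, array background as a covariate, the replicate number as a block, other filters and probe sets, and leaving out each array.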

Additional observations from a re-analysis of the deposited data

Results flagged for a closer look

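Of 88 sets of 4 arrays examined, 6 had 1 array far from the other 3 by Dixon's ratio on the log2 scale, and chance alone gives about 1 in 20. For COI1, the third probe set at 20% inhibition had replicate 4 far above the others, at 2337, and the sixth, dim one at the optimum had replicate 3 far below, at 7.002. AOS2 had replicate 4 lowest at the optimum (619.1) and at 30% inhibition (346.9). AOS1 had replicate 1 lowest at the optimum (180.3), and CYP94D24 had replicate 3 lowest at baseline (42.38). No sample of CYP74A2, AOC3 or AOC4 was singled out in this way.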

How the results depend on the processing

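For the 4 genes, 446 of 450 recomputed log2 differences moved by less than 1 SD between replicates, and 0 of 270 against baseline changed sign. Leaving out an array of a state outside the contrast, or adding the replicate block, cannot move such a difference. Both counts include these cases, so part of the agreement was fixed in advance. The 4 exceptions came with array background as a covariate: AOC3 was then at -0.91 and AOC4 at -1.14 for 20% inhibition against baseline, and at -0.17 and 0.061 for 20% inhibition against the optimum, the last with its sign turned. The cause was not tested.

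The pathway counts are small and moved easily. At the optimum (1 probe set) the count was 2 with quantile normalization or background as a covariate, 0 with no filter, and 0 to 2 with 1 array left out. At 20% inhibition against baseline (5) it was 3 with no filter, 3 with the brightest probe set per gene, where only 16 were tested, and 3 to 7 with 1 array left out. At 30% inhibition (7) it was 4 with the brightest per gene and 3 to 7 with 1 array left out. With no filter, AOS2 at the optimum, AOC2 at 30% and CYP94D24 at 20% inhibition had limma adjusted p of 0.0504, 0.0576 and 0.0612, and CYP94D24 had 0.0601 with quantile normalization and 0.0508 with the replicate block. From the optimum to 20% inhibition (1) it was 0 with background as a covariate, with no filter and with the replicate block, and 0 to 1 with 1 array left out.

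Deviations of arrays with the same replicate number correlated between -0.28 and 0.22, above 0.1 in 7 of 24 pairs. Arrays of different numbers were not compared, so these values do not settle whether the replicate numbers pair the arrays. With the replicate number as a block, 1, 4 and 7 probe sets passed against baseline in the 3 warmer states. The within-state correlations were examined after the data were seen; with 1 array left out, r stayed between 0.777 and 0.937 for AOC3 and JAZ1, and between 0.714 and 0.899 for AOC3 and AOC4. AOC4 at 20% inhibition lies close to background, which limits how far its lower values can be read.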
